A study of Mus musculus with 12 samples.

Results

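Nucleic acid sensors and their adaptors were followed in cultured mouse heart fibroblasts that had received medium from adipocytes. The set was drawn by name, with earlier results of these data known, and holds 10 genes: Rigi, Ifih1, Dhx58, Tlr3, Cgas, Sting1, Mavs, Eif2ak2, Adar and Trim25. Shares over all genes are therefore set beside its counts as a description. All 10 were among the 24619 genes of the count table, and all 10 were among the 14400 genes with enough counts to be tested. With TGF-beta1 in both groups, 7 of them rose in medium of adipocytes with the microRNA miR-548ay inhibited over vector medium. There 23.0% of all genes tested rose. In groups without TGF-beta1, 7 of them fell in medium of adipocytes overexpressing that microRNA against vector medium, where 25.7% of all genes tested fell.

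Cells notice foreign or misplaced nucleic acids with a small set of receptors. The RNA helicases RIG-I (gene Rigi) and MDA5 (Ifih1) bind double-stranded RNA in the cytoplasm and pass the signal to MAVS, an adaptor on the outer membrane of mitochondria, while LGP2 (Dhx58) binds RNA and tunes both helicases. TLR3 detects double-stranded RNA inside endosomes. The enzyme cGAS (Cgas) binds DNA and makes a cyclic dinucleotide that STING (Sting1), an adaptor of the endoplasmic reticulum, detects. Both adaptors lead to the kinase TBK1 and to transcription of type I interferon. PKR (Eif2ak2) binds double-stranded RNA and slows translation by phosphorylating eIF2alpha, ADAR1 (Adar) edits double-stranded RNA and so keeps a cell's own RNA from being sensed, and the ubiquitin ligase TRIM25 (Trim25) acts on RIG-I signalling. Interferon in turn raises transcription of several of these genes.

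The cells are described in the labels as primary mouse cardiac fibroblasts. They were starved of serum for 12 h and then held for 24 h in conditioned medium of lentivirus-infected adipocytes, and messenger RNA was sequenced in 12 libraries, 3 per group. VEC_CM had the medium of adipocytes carrying the vector, OE_CM that of adipocytes overexpressing miR-548ay, TGF_VEC_CM had TGF-beta1 with vector adipocyte medium, and TGF_KD_CM had TGF-beta1 with medium of adipocytes in which miR-548ay was inhibited. All groups share the lentiviral infection of the adipocytes, and both TGF groups share TGF-beta1, whose dose and point of addition were not settled here. The group of each library was read from its title, since treatment labels of replicates 2 and 3 of OE_CM and TGF_KD_CM carry other microRNA numbers. VEC_CM and OE_CM belong to a different section of the study from the TGF groups, so between TGF_VEC_CM and VEC_CM that section and TGF-beta1 cannot be told apart. The labels name no separate cultures for the replicates. The p-values set the difference between groups against the scatter of libraries within groups, and that scatter may be technical.

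Upstream sequence is shown for a member that moved far and one that moved little, which differ in a short run related to the interferon-stimulated response element, the site that interferon-activated factors bind. The pair was picked with its changes and promoters already seen, so the contrast is an illustration, and a link to the changes was not tested. The sequences are the 250 bases before the annotated start in RefSeq's GRCm38.p6, read 5′ to 3′ on the strand of the gene, with matches to the letters AANNGAAA on either strand in capitals. The Rigi stretch lies on the minus strand at chr4:40239826-40240075 and the Mavs stretch on the plus strand at chr2:131233813-131234062.
Rigi upstream: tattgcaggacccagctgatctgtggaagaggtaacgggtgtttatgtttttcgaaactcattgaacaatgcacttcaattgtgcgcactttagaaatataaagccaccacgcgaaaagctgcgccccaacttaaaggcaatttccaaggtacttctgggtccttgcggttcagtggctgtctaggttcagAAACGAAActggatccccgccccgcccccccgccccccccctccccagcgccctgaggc
Mavs upstream: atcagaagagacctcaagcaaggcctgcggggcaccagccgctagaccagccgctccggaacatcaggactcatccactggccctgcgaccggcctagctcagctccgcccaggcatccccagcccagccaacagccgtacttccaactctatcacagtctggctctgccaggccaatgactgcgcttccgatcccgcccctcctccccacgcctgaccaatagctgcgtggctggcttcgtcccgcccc
The Rigi stretch holds 1 match and the Mavs stretch holds none.

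The members with such a run near their start are shown as 30-base windows around it, on the strand of the gene, with the matching letters in capitals. Capitals mark the core of the response element (GAAA, any 2 bases, GAAA) for Rigi (chr4:40239805-40239834), Ifih1 (chr2:62646206-62646235) and Eif2ak2 (chr17:78882534-78882563), and AANNGAAA for Tlr3 (chr8:45410421-45410450), Adar (chr3:89730736-89730765) and Trim25 (chr11:88999388-88999417). In Rigi, Tlr3 and Trim25 the match is on the opposite strand, so its letters read in reverse complement. The Ifih1, Eif2ak2 and Adar windows lie in the transcribed part just past the start used, the Tlr3 window before it, and the Rigi and Trim25 windows across it. For Tlr3 and Adar the start used is an internal one. Their windows lie inside the annotated genes (chr8:45395665-45411075 and chr3:89714469-89753455), so the Tlr3 window is not upstream of the whole gene.
Rigi: ccctgaggcagTTTCGATTTCctatggcca
Ifih1: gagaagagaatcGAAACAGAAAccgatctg
Eif2ak2: gtccgccggGAAAACGAAAcagaagagaac
Tlr3: aagtgaatggcTTTCACTTtgtttagacac
Adar: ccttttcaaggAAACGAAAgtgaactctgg
Trim25: ctcctgttcagTTTCGATTccttcctcgct
Promoters of 300 bases, 250 before to 50 after a start, were found for 8 of the 10 members, and not for Dhx58 and Sting1. The core of the response element occurred in 3 of the 8, against 3.99% of the 27025 mouse genes with a promoter searched in the same way on both strands, counted over all their starts (3.44% of 32851 promoters). AANNGAAA, a shorter run contained in every match to that core and chosen after the promoters had been seen, occurred in 6 of the 8, against 26.7% of genes (23.9% of promoters). Cgas and Mavs had neither. TTCNNNGAA, the gamma-activated sequence, occurred in Eif2ak2 and Adar, against 9.55% of genes (8.3% of promoters). Of the 3 Adar starts in the table, only the third, which GENCODE M21 does not carry, held a match. A match to letters is a description and not a measured binding site.

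**Figure D1:**
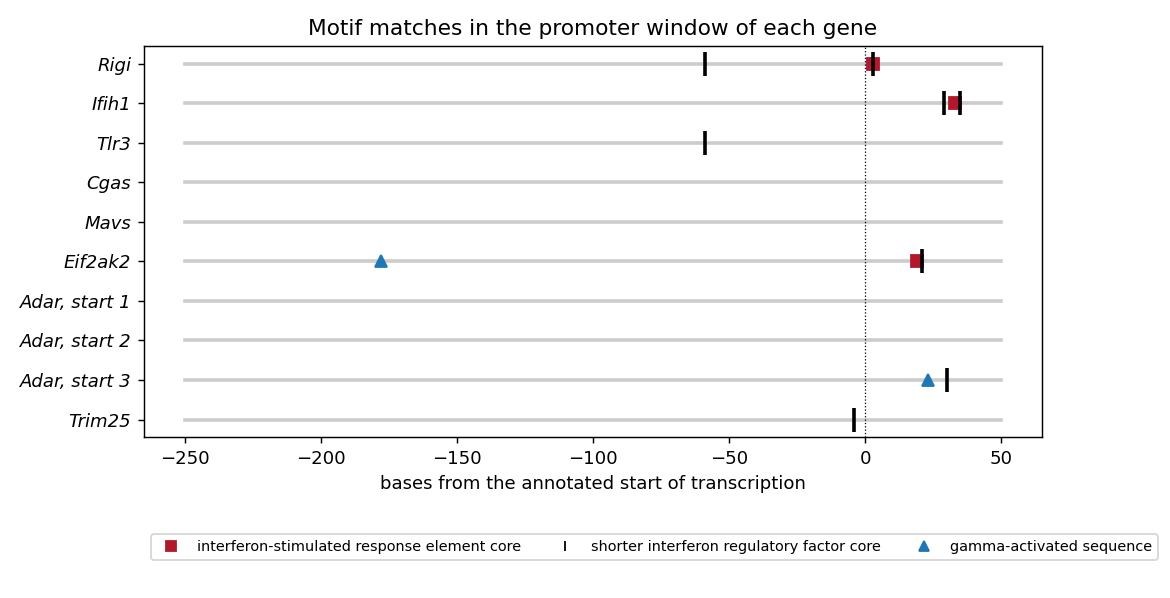
Matches to 3 motifs near the annotated start of the 8 members with a promoter in the table. The horizontal axis is the distance of a match from the start in bases, each row is a member with a start, and symbols stand for motifs; Cgas and Mavs hold no match to the response element core or to AANNGAAA.

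Totals ran from 33379207 to 37226153 counts per library, and a level of 3 counts lay at or under 0.0939 CPM, counts scaled by library total and TMM factor, in each library. OE_CM replicate 1 stood apart from the other OE_CM libraries on a principal component with 3.81% of the variance, and without it 8 members were called in OE_CM against VEC_CM, as with it. Of 12 fibroblast markers 11 were in the table, and they summed to 12766 to 12974 CPM for VEC_CM, 12778 to 12884 for OE_CM, 10525 to 10624 for TGF_VEC_CM and 11642 to 12025 for TGF_KD_CM, but group means of Dcn lay between 0.119 and 0.146 CPM and of Thy1 between 0.246 and 0.366 CPM, Lum had 3 counts in all libraries together and Tcf21 was not in the table. Leukocyte markers (15 of 16 in the table) summed to 47.6 to 49.9 CPM for VEC_CM, 24.0 to 40.1 for OE_CM, 36.8 to 39.9 for TGF_VEC_CM and 33.1 to 35.2 for TGF_KD_CM. Of these 15 markers 10 had enough counts to be tested. Among the low ones Ptprc had group means of 0.262 to 0.846 CPM, Cd3e had 1 and Siglech 3 counts in all. Adipocyte markers summed to 386 to 403 CPM for VEC_CM, 221 to 230 for OE_CM, 275 to 289 for TGF_VEC_CM and 253 to 270 for TGF_KD_CM. Of the 8 adipocyte markers 6 had enough counts to be tested, while Lep had 1 count in all. Cardiomyocyte markers, nearly all of it Tnnt2, summed to 70.0 to 75.2 CPM for VEC_CM, 163 to 167 for OE_CM, 105 to 116 for TGF_VEC_CM and 97.2 to 104 for TGF_KD_CM, while Tnni3 and Actc1 had 2 counts each in all libraries. Endothelial markers stayed at or below 1.80 CPM in sum. In bulk RNA, fewer cells of a type and less RNA per cell cannot be told apart.

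Levels of the members differed widely when set per length as FPKM, a level scaled to gene length and library size. In VEC_CM the highest was Eif2ak2 at 17.9 ± 0.719 FPKM (mean ± SD, n = 3), followed by Trim25 at 17.3, Mavs at 13.7 and Adar at 12.3 FPKM. Sting1 stood at 6.72 and Cgas at 2.53 FPKM. The RNA receptors were the lowest, with Dhx58 at 1.79, Rigi at 1.58, Tlr3 at 0.339 and Ifih1 at 0.228 FPKM. In TGF_KD_CM the order had changed: Dhx58 at 28.3 and Rigi at 25.3 FPKM lay above Mavs at 12.0 FPKM, and Ifih1 at 5.09 FPKM lay close to Sting1 at 6.40 FPKM. The 3 helicases together summed to 3.54 to 3.66 FPKM per library for VEC_CM and 1.81 to 2.03 for OE_CM. Their sum was 10.4 to 10.8 for TGF_VEC_CM and 57.2 to 60.0 for TGF_KD_CM, with no overlap between groups. How often sums of other genes separate all groups was not counted. The ratio of Dhx58 to Rigi stayed between 0.727 and 1.24 across the 12 libraries, so the 2 messengers kept similar levels per length while both moved.

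**Figure D2:**
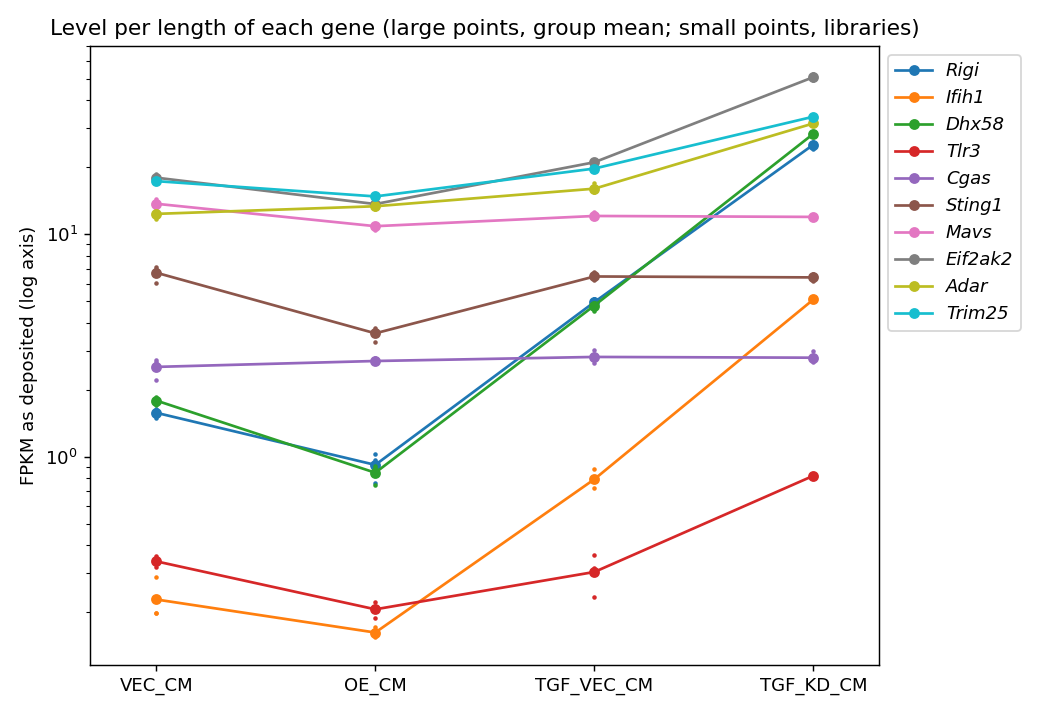
Mean FPKM of each member in the 4 groups on a log axis, with points for group means and lines joining the means of a gene only to guide the eye. Dhx58 and Rigi lie below Mavs in VEC_CM and above it in TGF_KD_CM, and Cgas stays between 2.53 and 2.81 FPKM.

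The comparison of TGF_KD_CM with TGF_VEC_CM asks what inhibiting the microRNA in adipocytes changes for fibroblasts under TGF-beta1. Among the 10 members 7 rose, none fell and Cgas, Sting1 and Mavs did not pass the test. The test was edgeR's quasi-likelihood test with Benjamini-Hochberg adjustment over 14400 genes and a threshold of 0.05, which called 43.3% of all genes tested, 23.0% higher and 20.2% lower. All TGF_KD_CM libraries lay above all TGF_VEC_CM libraries for the same 7 members, as they did for 26.2% of all genes. Rises of at least 2-fold were called for 6 members, against 1.50% of all genes, and of at least 4-fold for 3 members, the helicases, against 0.528% of all genes. Adar, at log2 1.01, lay at the 2-fold cutoff, and its lowest value under alternative processing was 0.93. The median log2 fold change of the members was 1.16, and that of all genes tested was -0.00. Summed markers also separated these groups without overlap. Leukocyte markers (33.1 to 35.2 against 36.8 to 39.9 CPM), adipocyte markers (253 to 270 against 275 to 289 CPM) and cardiomyocyte markers (97.2 to 104 against 105 to 116 CPM) were lower in TGF_KD_CM than in TGF_VEC_CM, and fibroblast markers were higher (11642 to 12025 against 10525 to 10624 CPM). Gene by gene, 2 of 6 tested adipocyte markers rose, 1 fell and 3 did not pass. Among 10 tested leukocyte markers 1 rose and 2 fell, and of 9 tested fibroblast markers 6 rose and none fell. Of 2 tested cardiomyocyte markers 1 fell and 1 did not pass. The part of these markers in the result was not tested.

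Rigi (NCBI gene 230073, chr4:40203777-40239825 in GRCm38.p6, as are the positions that follow) encodes the receptor for short double-stranded RNA with a 5′ triphosphate. It was at 24.6, 22.1 and 24.6 CPM in TGF_VEC_CM and at 118, 126 and 128 CPM in TGF_KD_CM. The groups were far apart relative to their spread. The rise was 5.22-fold (log2 2.38 ± 0.054 SE, edgeR adjusted p = 4.44e-46), which placed Rigi 14th of 14400 genes by p and 60th by size of rise. Ifih1 (NCBI gene 71586, chr2:62595618-62646255), the receptor for long double-stranded RNA, was at 3.96, 4.76 and 4.23 CPM in TGF_VEC_CM and at 28.8, 28.2 and 28.3 CPM in TGF_KD_CM. The KD libraries differed among themselves by less than 1 CPM, and the rise was 6.56-fold (log2 2.71 ± 0.10, edgeR adjusted p = 3.28e-33). Dhx58 (NCBI gene 80861, chr11:100694884-100704271), whose product lacks the signalling domains of the other helicases, was at 10.9, 11.7 and 11.8 CPM in TGF_VEC_CM and at 68.1, 69.2 and 70.8 CPM in TGF_KD_CM. It rose 6.05-fold (log2 2.60 ± 0.065, edgeR adjusted p = 2.87e-43). Of its exon bases 4.31% are shared with an antisense gene, Dhx58os, whose reads cannot be told apart from its own here because the strand setting of the counting is not given.

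Tlr3 (NCBI gene 142980, chr8:45395665-45411075) had few reads. It was at 1.15, 1.76 and 1.55 CPM in TGF_VEC_CM, from 41 to 65 counts, and at 4.04, 4.23 and 4.08 CPM in TGF_KD_CM, from 149 to 156 counts. The lowest TGF_KD_CM library was still above the highest TGF_VEC_CM library, and the rise was 2.76-fold (log2 1.47 ± 0.21, edgeR adjusted p = 2.1e-08). The same limit of strand applies to 7.32% of its exon bases, shared with the antisense gene Gm45542.

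PKR, ADAR1 and TRIM25, which act on RNA or on RIG-I rather than starting an interferon signal themselves, began from higher levels and rose less. Eif2ak2 (NCBI gene 19106, chr17:78850504-78882572) was at 129, 138 and 138 CPM in TGF_VEC_CM and at 321, 346 and 333 CPM in TGF_KD_CM, a rise of 2.47-fold (log2 1.30 ± 0.031, edgeR adjusted p = 9.03e-44). It shares 3.4% of its exon bases with Gm26637 on the other strand. Adar (NCBI gene 56417, chr3:89714469-89753455) was at 95.6, 105 and 96.6 CPM against 198, 203 and 196 CPM, a rise of 2.01-fold (log2 1.01 ± 0.034, edgeR adjusted p = 4.81e-36). Antisense to Adar, Chrnb2 covers 16.8% of its exon bases, and the part of Chrnb2 reads in the Adar counts was not tested. Counts listed for Chrnb2 came to 4.86 ± 0.679 CPM in TGF_KD_CM and 6.27 ± 0.438 CPM in TGF_VEC_CM. Trim25 (NCBI gene 217069, chr11:88999403-89020294) was at 106, 108 and 105 CPM against 184, 187 and 189 CPM, a rise of 1.75-fold (log2 0.81 ± 0.031, edgeR adjusted p = 1.4e-32).

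The DNA-sensing pair and MAVS gave values that overlapped between the groups. Cgas (NCBI gene 214763, chr9:78430518-78443237) was at 10.5, 10.8 and 12.0 CPM in TGF_VEC_CM and at 10.7, 12.2 and 10.9 CPM in TGF_KD_CM, a log2 difference of 0.02 with a 95% interval from -0.16 to 0.20. Of Cgas exon bases 4.87% are shared with a pseudogene on the other strand, Gm8093. Sting1 (NCBI gene 72512, chr18:35733678-35740554) was at 14.4, 15.1 and 14.1 CPM against 14.1, 15.3 and 14.8 CPM, a log2 difference of 0.02 with an interval from -0.14 to 0.18. Mavs (NCBI gene 228607, chr2:131234063-131248025) was at 42.7, 45.1 and 42.8 CPM against 43.3, 45.0 and 44.0 CPM, a log2 difference of 0.02 with an interval from -0.08 to 0.12. All 3 intervals leave out the 1.75-fold rise of Trim25, the smallest among the members called, whose log2 value was 0.81.

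**Figure D3:**
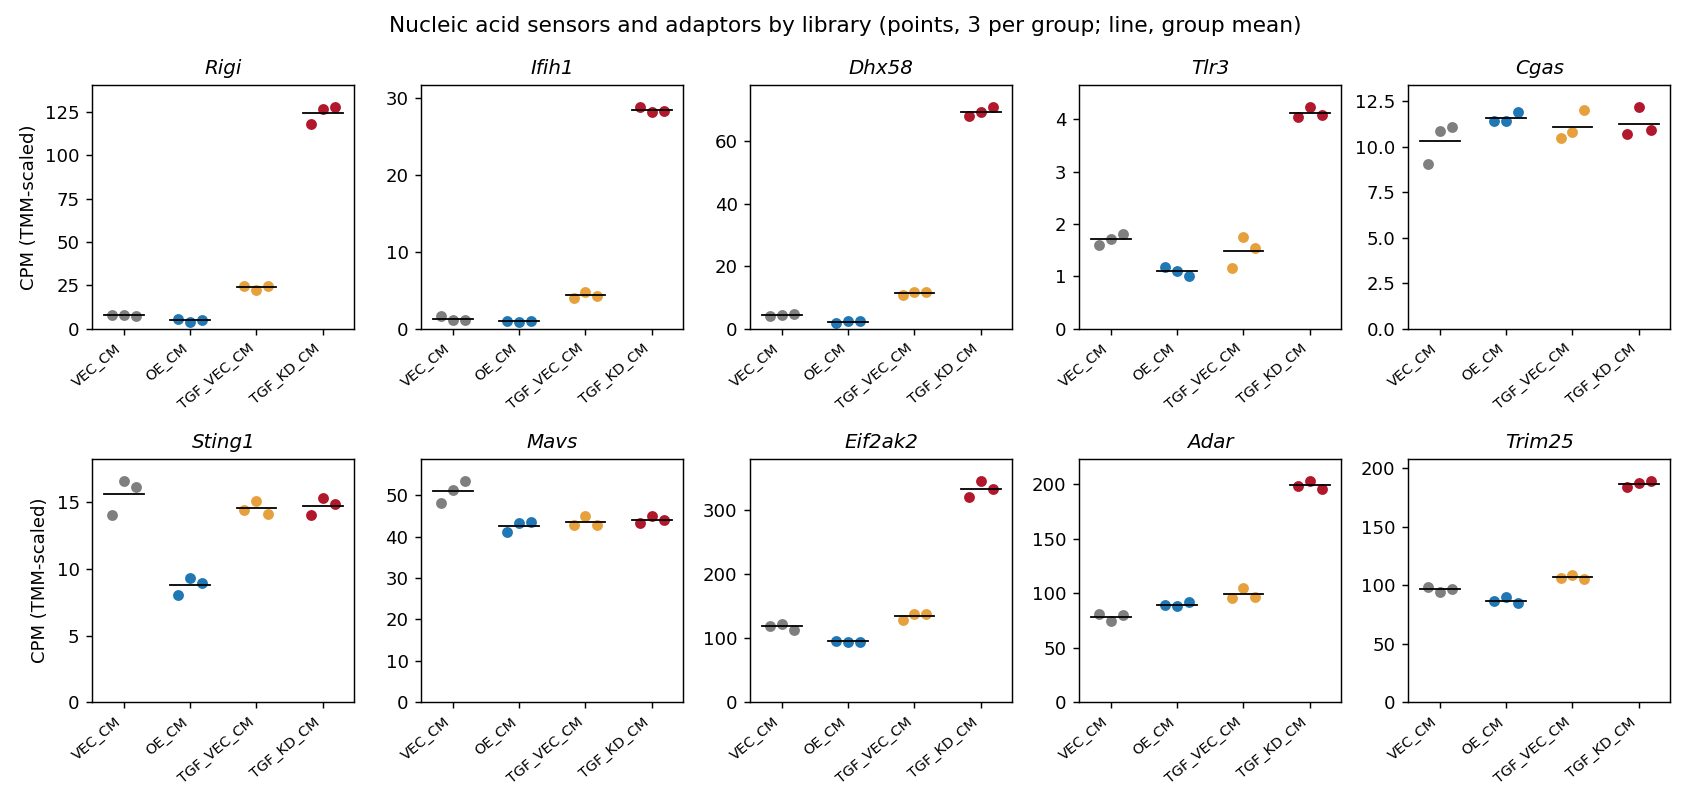
CPM of the 10 members in each of the 12 libraries, 1 panel per gene, with points for libraries and bars for group means. The TGF_KD_CM libraries lie above all others for Rigi, Ifih1, Dhx58, Tlr3, Eif2ak2, Adar and Trim25. The OE_CM libraries lie below all others for Sting1, and the VEC_CM libraries lie above all others for Mavs. The share of all genes with a group set apart in this way was not counted.

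OE_CM was compared with VEC_CM to ask what overexpression of the microRNA in adipocytes changes. Of the 10 members 7 fell, Adar rose, and Ifih1 and Cgas did not pass the test, where 54.0% of all genes tested were called, 28.4% higher and 25.7% lower. The libraries of the 2 groups did not overlap for any member: 8 were below and 2 above in OE_CM, against 27.9% and 30.4% of all genes. A fall of at least 2-fold was called for 1 member, Dhx58, against 4.92% of all genes. Dhx58, at log2 -1.005, lay at that cutoff, and leaving out 1 library at a time gave -1.05 to -0.92. The median log2 fold change was -0.37 for the members and -0.01 for all genes. The summed leukocyte and adipocyte markers were also lower in OE_CM than in VEC_CM (24.0 to 40.1 against 47.6 to 49.9 CPM, and 221 to 230 against 386 to 403 CPM), and the cardiomyocyte markers were higher (163 to 167 against 70.0 to 75.2 CPM). Gene by gene, 1 of 6 tested adipocyte markers rose, 1 fell and 4 did not pass. Among 10 tested leukocyte markers none rose, 3 fell and 7 did not pass. Of 2 tested cardiomyocyte markers 1 rose and 1 did not pass. The part of these markers in the OE_CM values was not tested. Genes called higher were 52.5% of those called with TMM factors and 35.6% with upper-quartile factors, the scaling that moved this split most.

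Dhx58 was at 4.19, 4.51 and 4.57 CPM in VEC_CM and at 1.95, 2.33 and 2.35 CPM in OE_CM. It fell 2.01-fold (log2 -1.005 ± 0.12, edgeR adjusted p = 5.81e-11). Rigi was at 7.87, 8.14 and 7.39 CPM in VEC_CM and at 5.36, 4.01 and 5.01 CPM in OE_CM. The fall of 1.62-fold (log2 -0.70 ± 0.093, edgeR adjusted p = 1.73e-09) was larger than the spread within either group. Ifih1, from only 30 to 59 counts per library, was at 1.61, 1.12 and 1.12 CPM against 1.02, 0.927 and 0.939 CPM, and its log2 difference of -0.41 ± 0.20 did not pass (edgeR adjusted p = 0.076), except with upper-quartile factors (log2 -0.50, adjusted p = 0.03). Tlr3 was at 1.61, 1.72 and 1.81 CPM against 1.19, 1.11 and 1.00 CPM, and fell 1.55-fold (log2 -0.64 ± 0.24, edgeR adjusted p = 0.0184). This call was lost without VEC_CM replicate 3 (log2 -0.59, adjusted p = 0.0551) and without OE_CM replicate 3 (log2 -0.57, adjusted p = 0.0618).

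Sting1 had the largest fall after Dhx58 in this comparison. It was at 14.0, 16.6 and 16.1 CPM in VEC_CM and at 8.01, 9.33 and 8.98 CPM in OE_CM, a fall of 1.78-fold (log2 -0.83 ± 0.087, edgeR adjusted p = 7.78e-13). Cgas, which makes the messenger that STING binds, was at 9.04, 10.8 and 11.1 CPM against 11.4, 11.4 and 11.9 CPM, a log2 difference of 0.16 ± 0.093 that did not pass (edgeR adjusted p = 0.136, 95% interval from -0.02 to 0.35). The interval for Cgas lies wholly above that for Sting1, which ran from -1.004 to -0.66. Mavs was at 48.1, 51.2 and 53.4 CPM against 41.1, 43.2 and 43.4 CPM and fell 1.20-fold (log2 -0.26 ± 0.048, edgeR adjusted p = 5.32e-06).

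Eif2ak2 was at 119, 123 and 114 CPM in VEC_CM and at 96.6, 94.7 and 94.2 CPM in OE_CM, a fall of 1.25-fold (log2 -0.32 ± 0.033, edgeR adjusted p = 9.6e-13). Trim25 was at 98.7, 94.6 and 96.5 CPM against 86.4, 89.6 and 84.8 CPM and fell 1.11-fold (log2 -0.15 ± 0.033, edgeR adjusted p = 8.13e-05). Both differences were small but larger than the spread of the libraries. Adar moved the other way, from 80.9, 74.6 and 80.3 CPM to 89.2, 88.0 and 91.7 CPM, a rise of 1.14-fold (log2 0.19 ± 0.036, edgeR adjusted p = 8.59e-06). With upper-quartile factors the Adar rise was log2 0.10 (adjusted p = 0.0139) and the Trim25 fall was log2 -0.24.

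**Figure D4:**
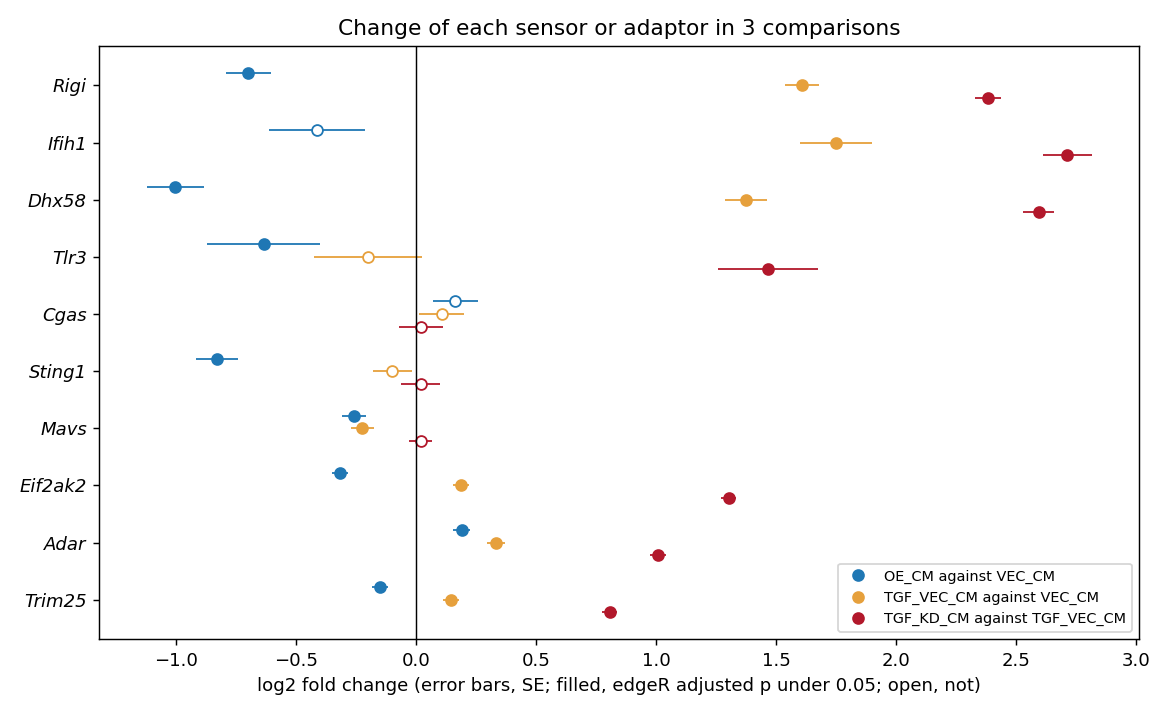
Log2 fold change of each member in the 3 comparisons OE_CM against VEC_CM, TGF_KD_CM against TGF_VEC_CM and TGF_VEC_CM against VEC_CM, with bars for the SE of the edgeR fit and filled points for adjusted p under 0.05. The 3 helicases lie above 2 in the TGF_KD_CM comparison and below 0 in the OE_CM comparison, while Cgas has open points in all of them.

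The difference between the effects of TGF_KD_CM (over TGF_VEC_CM) and of OE_CM (over VEC_CM) was tested in the same fit. Between these effects the direction of the microRNA change, TGF-beta1 and the section of the study differ together and cannot be told apart. The difference was positive and passed for 9 of the 10 members, against 52.5% of all genes in either direction, 26.8% with a positive and 25.6% with a negative difference. It was largest for Dhx58 (log2 3.60 ± 0.13, edgeR adjusted p = 8.64e-34), Ifih1 (3.13 ± 0.23) and Rigi (3.08 ± 0.11). For Sting1 the difference was log2 0.85 ± 0.12 (adjusted p = 8.26e-09) and for Mavs 0.28 ± 0.069 (adjusted p = 0.000433), and both had fallen in OE_CM and not passed in TGF_KD_CM. For Cgas it was -0.14 ± 0.13 and did not pass (adjusted p = 0.38, 95% interval from -0.40 to 0.12).

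TGF_VEC_CM was compared with VEC_CM, where TGF-beta1 and the section of the study differ together. This comparison uses the VEC_CM libraries of the OE_CM comparison and the TGF_VEC_CM libraries of the TGF_KD_CM comparison. Of the members 6 rose, Mavs fell and 3 did not pass, where 58.3% of all genes were called, 28.9% higher and 29.4% lower. At least 2-fold rises were called for 3 members, the helicases, against 7.27% of all genes. Summed fibroblast (10525 to 10624 against 12766 to 12974 CPM), leukocyte (36.8 to 39.9 against 47.6 to 49.9 CPM) and adipocyte markers (275 to 289 against 386 to 403 CPM) were lower in TGF_VEC_CM than in VEC_CM. Cardiomyocyte markers (105 to 116 against 70.0 to 75.2 CPM) and endothelial markers (1.17 to 1.80 against 0.547 to 0.710 CPM) were higher. Gene by gene, 1 of 6 tested adipocyte markers rose, 2 fell and 3 did not pass. Among 10 tested leukocyte markers 1 rose and 5 fell, and of 9 tested fibroblast markers 1 rose and 4 fell. The 2 tested cardiomyocyte and 2 tested endothelial markers all rose. The part of these markers was not tested. Ifih1 rose 3.36-fold (log2 1.75 ± 0.15, edgeR adjusted p = 2.81e-16), Rigi 3.05-fold (log2 1.61 ± 0.070, adjusted p = 4.69e-30) and Dhx58 2.59-fold (log2 1.37 ± 0.087, adjusted p = 5.81e-22). The rises of Adar (1.26-fold), Eif2ak2 (1.14-fold) and Trim25 (1.11-fold) were small. Mavs fell 1.17-fold (log2 -0.23 ± 0.048, adjusted p = 4.66e-05). Tlr3 (log2 -0.20, 95% interval from -0.65 to 0.25), Cgas (0.11, from -0.08 to 0.29) and Sting1 (-0.10, from -0.26 to 0.06) did not pass.

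Set in order over the 4 groups, the members fell into a few patterns. Rigi, Dhx58, Eif2ak2 and Trim25 were lowest in OE_CM, then VEC_CM, then TGF_VEC_CM, and highest in TGF_KD_CM, and each step passed the test. In these directions 25.7% of all genes were called between OE_CM and VEC_CM, 28.9% between VEC_CM and TGF_VEC_CM and 23.0% between TGF_VEC_CM and TGF_KD_CM. The share of all genes with this whole order was not counted. Steps between a TGF group and a group without TGF-beta1 also hold the section of the study, which cannot be told apart from it. Ifih1 had the same order, but its step from OE_CM to VEC_CM did not pass. Adar was lowest in VEC_CM (78.6 ± 3.49 CPM), then OE_CM (89.6 ± 1.87), TGF_VEC_CM (99.0 ± 4.98) and TGF_KD_CM (199 ± 3.63), and each step passed. Of all genes 28.4% were called higher in OE_CM than in VEC_CM and 30.5% higher in TGF_VEC_CM than in OE_CM. For Tlr3 only TGF_KD_CM, at 4.12 ± 0.102 CPM, was separated from its neighbour. For Sting1 only OE_CM, at 8.78 ± 0.681 CPM, was separated, below the other groups at 14.5 to 15.6 CPM. For Mavs only VEC_CM, at 50.9 ± 2.68 CPM, was separated, above the others at 42.5 to 44.1 CPM. No neighbouring groups of Cgas, from 10.3 to 11.6 CPM, were separated. The share of all genes with only 1 group separated was not counted.

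TGF_KD_CM and VEC_CM differ in the microRNA inhibition, TGF-beta1 and the section of the study together. In that comparison 7 members rose and Mavs fell, against 41.7% of all genes called, 21.2% higher and 20.4% lower. Rigi was 15.9-fold, Ifih1 22.1-fold and Dhx58 15.7-fold higher. Against OE_CM, 8 members rose in TGF_KD_CM (58.3% of all genes called, 28.4% higher and 29.9% lower), including Sting1 at 1.68-fold and Dhx58 at 31.4-fold, and 7 rose in TGF_VEC_CM (64.5% of all genes called, 30.5% higher and 34.1% lower).

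Genes around the members in the pathway were taken from lists drawn from textbook roles, also with earlier results of these data known. Of 22 kinases, adaptors and transcription factors downstream, 9 rose, 4 fell and 9 did not pass in TGF_KD_CM against TGF_VEC_CM, with a median log2 of 0.05. Of all genes tested 23.0% rose and 20.2% fell there. Irf7, the interferon-inducible factor that amplifies type I interferon transcription, went from 4.84 ± 0.318 to 105 ± 5.49 CPM (log2 4.44 ± 0.15, edgeR adjusted p = 1.9e-09). Nfkb1, a subunit of NF-kappaB, rose (log2 0.57 ± 0.032), as did Tbk1 (log2 0.27 ± 0.040), the kinase that both MAVS and STING engage. Ticam1, the adaptor of TLR3, fell from 30.8 ± 0.275 to 18.6 ± 0.253 CPM (log2 -0.72 ± 0.068, edgeR adjusted p = 3.37e-14), while Tlr3 itself rose. Irf3, the factor that TBK1 phosphorylates and named here after its values were seen, was at 24.1 ± 1.28 and 23.1 ± 1.81 CPM and did not pass (adjusted p = 0.504). In OE_CM against VEC_CM, 5 of the 22 rose, 7 fell and 10 did not pass, where 28.4% of all genes rose and 25.7% fell.

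Among 27 tested regulators of these sensors (29 listed), 10 rose, 4 fell and 13 did not pass in TGF_KD_CM against TGF_VEC_CM, with a median log2 of 0.09. The shares over all genes were 23.0% higher and 20.2% lower. Trim21, an antibody receptor and ubiquitin ligase, went from 2.35 ± 0.324 to 15.6 ± 1.63 CPM (log2 2.73 ± 0.14, edgeR adjusted p = 7.49e-27). Zc3hav1, the zinc-finger antiviral protein, rose by log2 0.47 ± 0.027, Trim56 by 0.65 ± 0.064 and Nlrc5 by 0.60 ± 0.058. In OE_CM 9 of the 27 rose, 8 fell and 10 did not pass, where 28.4% of all genes rose and 25.7% fell.

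Other nucleic acid sensors were tested for 22 of 25 listed genes, and 6 rose, 3 fell and 13 did not pass in TGF_KD_CM against TGF_VEC_CM. Over all genes tested 23.0% rose and 20.2% fell. Zbp1, a sensor of Z-form nucleic acids, went from 9.68 ± 1.18 to 214 ± 13.3 CPM (log2 4.47 ± 0.11, edgeR adjusted p = 3.33e-11). Ifi204, one of a family of near-identical genes whose counts are therefore uncertain, rose by log2 1.50 ± 0.041. Ddx60, a helicase linked to RIG-I, went from 0.155 ± 0.0391 to 4.03 ± 0.276 CPM, that is from 4 to 7 counts per library to 141 to 160. Xrcc6, a subunit of the DNA end-binding Ku dimer, fell (log2 -0.32 ± 0.038). The remaining endosomal receptors Tlr7, Tlr8 and Tlr9 had 60, 16 and 14 counts in all libraries together and were not tested. In OE_CM against VEC_CM 13 of the 22 rose, 3 fell and 6 did not pass, where 28.4% of all genes rose and 25.7% fell. Zbp1 was among those of the 22 that rose, at 13.4 ± 1.72 against 1.84 ± 0.533 CPM (log2 2.86 ± 0.19, edgeR adjusted p = 2.31e-07).

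A list headed nucleases and enzymes that clear nucleic acids had 18 genes tested of 21 listed. It also held genes outside that heading, such as the transporter Slc19a1, while Trex1 and Trex2 were not in the table. Of the 18, 10 rose, 4 fell and 4 did not pass in TGF_KD_CM against TGF_VEC_CM, with a median log2 of 0.19. Among all genes tested 23.0% rose and 20.2% fell. Samhd1, which depletes nucleotides, rose (log2 0.30 ± 0.030) and fell in OE_CM (log2 -0.32 ± 0.031). Pnpt1, an RNA-degrading enzyme of mitochondria, rose by log2 0.40 ± 0.041 and Rnaseh2b, a subunit of RNase H2, by 0.48 ± 0.071. Slc19a1, a transporter that also imports cyclic dinucleotides, fell (log2 -0.30 ± 0.041) and rose in OE_CM (log2 0.90 ± 0.041). In OE_CM 6 of the 18 rose, 8 fell and 4 did not pass, where 28.4% of all genes rose and 25.7% fell.

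Among 13 eIF2alpha kinases and partners of PKR, 6 rose, 1 fell and 6 did not pass in TGF_KD_CM against TGF_VEC_CM, with a median log2 of 0.02. The shares over all genes were 23.0% higher and 20.2% lower. Tarbp2, an RNA-binding inhibitor of PKR, rose by log2 0.35 ± 0.045, Ppp1r15b, a subunit of the eIF2alpha phosphatase, by 0.23 ± 0.029, and Eif2ak1, the haem-regulated kinase, by 0.17 ± 0.038. Eif2s1, which encodes eIF2alpha itself, fell (log2 -0.21 ± 0.027). The rise of Eif2ak2, log2 1.30, was outside the range of these 4 values.

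Interferon ligand genes, the output of the pathway, were listed for 21 symbols, of which 5 were in the table and none had enough counts to be tested. Ifnb1 had 2 counts over the 12 libraries, 1 in TGF_VEC_CM and 1 in TGF_KD_CM. Ifna7 and Ifne had 3 counts each, Ifnz 5 and Ifng 7, with at most 4 counts in any library. At this depth 3 counts in a library, a floor set here, correspond to at most 0.0939 CPM. At so few counts low levels and absence were not told apart.

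**Figure D5:**
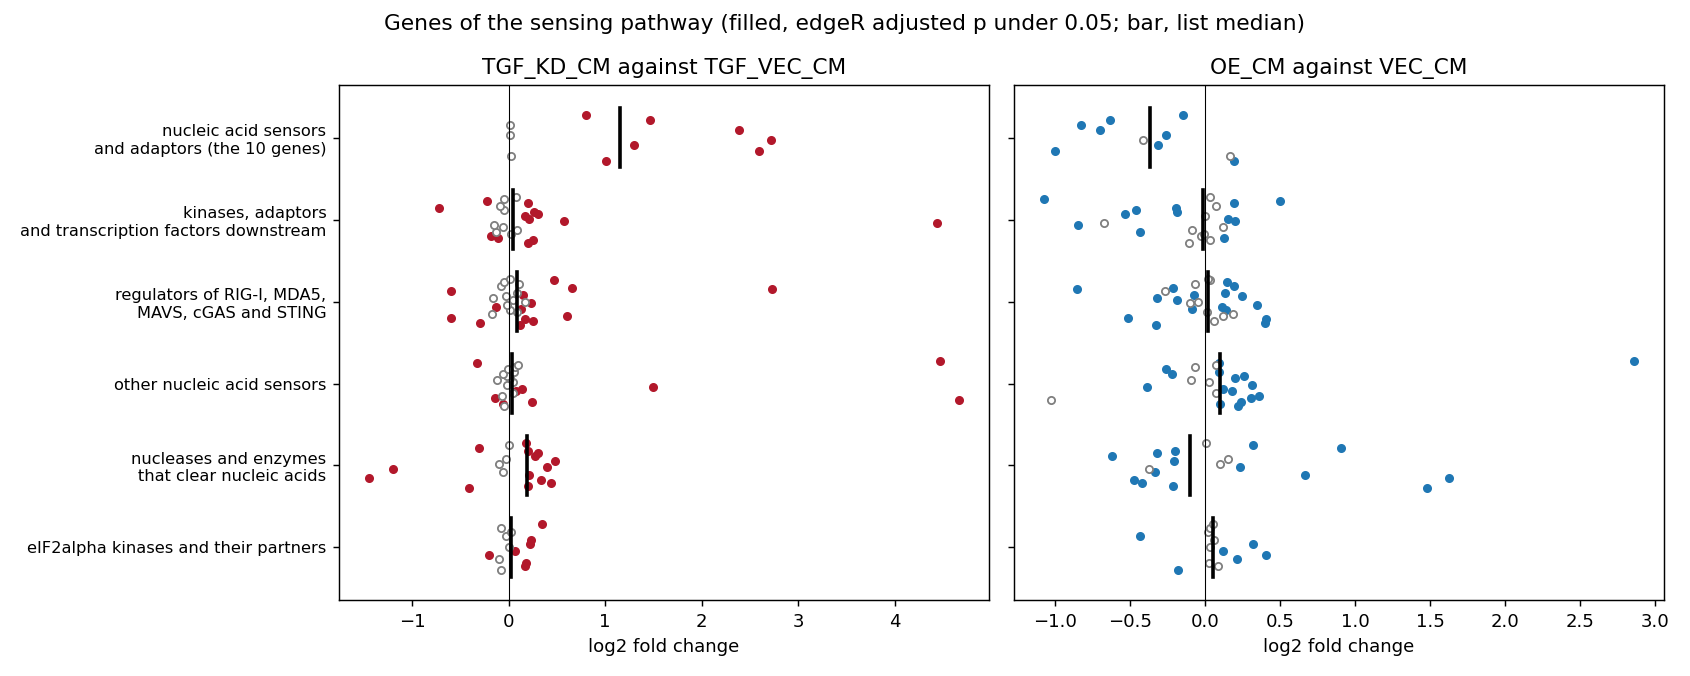
Log2 fold change of the members and of the genes in 5 lists of the pathway in TGF_KD_CM against TGF_VEC_CM and in OE_CM against VEC_CM, with points for genes, bars for list medians and filled points for edgeR adjusted p under 0.05. In the TGF_KD_CM comparison the median of the members is 1.16 and the medians of the other lists lie between 0.02 and 0.19.

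The genes whose pattern over the 12 libraries was most like that of each member were found by Pearson correlation of log2 CPM among 11984 genes, as a description. The libraries share their groups, so any genes that separate the groups alike correlate strongly. Rigi (r = 0.9973) and Dhx58 (r = 0.9986) both had Helz2, a helicase co-regulator, first. Ifih1 had Irf9 first (r = 0.9981), the DNA-binding subunit of the interferon-stimulated factor, which rose by log2 2.02 in TGF_KD_CM. Tlr3 had Parp14 (r = 0.9805), Adar had the class I histocompatibility gene H2-K1 (r = 0.9895), and Eif2ak2 and Trim25 both had Tor3a (r = 0.9953 and r = 0.9954). Sting1 had Slc66a3 (r = 0.9897), Mavs had Sh2d3c (r = 0.9578) and Cgas had Zfp623 (r = 0.8238), the lowest first correlation of the members. In TGF_KD_CM against TGF_VEC_CM Slc66a3 had log2 0.07 and Sh2d3c 0.08. Being picked for likeness to Sting1 and Mavs over these libraries, they resemble those members by construction.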

How the data were processed

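Messenger RNA was measured in 12 libraries in 4 groups of 3. The deposited table of raw counts per gene symbol was used for all tests, and the authors' deposited FPKM table (counts divided by the column total and 1 length per gene, which was checked for 24619 genes to within 0.000395%) for levels between genes. The submitters' processing notes name the build GRCm38 (mm10). Which aligner, counter, strand setting and annotation made the table is not given in the sources used here. Kits and culture are per the labels' protocols.

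The test was edgeR 4.0.16 (R 4.3.3) on the deposited counts: filterByExpr kept 14400 genes, TMM factors were applied, and all libraries entered 1 robust quasi-likelihood fit with a mean per group, two-sided, Benjamini-Hochberg adjusted over 14400 genes at 0.05. CPM is scaled by TMM factors. SE is the log2 fold change divided by the root of F, and intervals are 95%. Totals of 33379207 to 37226153 counts give a floor of 3 counts per library; floors cover counting error only. With 3 against 3 libraries an exact permutation test of a single value cannot go below p = 0.1. Replicates of a group correlated with r of 0.992 to 0.994. On simulated counts of 13745 genes for OE_CM against VEC_CM, 199 of 200 changed genes and 7 unchanged genes were called. Every gene was drawn with the same spread between libraries, so differences in spread between genes were not covered.

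The members and the lists were chosen with earlier results of these data known. All members are named; of each other list, at most 4 genes of lowest p in TGF_KD_CM against TGF_VEC_CM, genes the list rests on that were not tested, and interferon ligands with any count. For each member the gene of highest r with a mean of at least 1 CPM is named, from the 3 highest. Alternatives were other scalings and filters, DESeq2 1.42.0, limma 3.58.1 on log2 FPKM, pairwise fits, the replicate block and leaving out each library. Gene starts, positions and promoters are RefSeq's for GRCm38.p6, and shared exon bases come from GENCODE M21. Promoters were matched by symbol, Rigi by its older symbol Ddx58.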

Additional observations from a re-analysis of the deposited data

How the results depend on the processing

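Over 21 alternatives no log2 fold change of a member that passed the test changed sign. Values near 0 that did not pass changed sign under some of them: Cgas, Sting1 and Mavs in TGF_KD_CM against TGF_VEC_CM, and Cgas in both TGF groups against OE_CM. Of all member values, 1448 of 1460 kept their side of the threshold. All 292 counts of genes or members called stayed within 1.5 times of the main count. The 2 losses were Tlr3 in OE_CM, given above. The 10 gains were Ifih1 in OE_CM with upper-quartile factors, and Tlr3 or Mavs against OE_CM with upper-quartile factors, limma or without TGF_VEC_CM replicate 1 (Tlr3, adjusted p = 0.0373). Leaving out 1 library at a time gave 7 to 8 members called in OE_CM against VEC_CM and in TGF_VEC_CM against OE_CM. Upper-quartile factors moved the median log2 of all genes from -0.00 to 0.11 in TGF_VEC_CM against OE_CM, and the share of higher calls from 47.2% to 64.1% there and from 48.7% to 64.6% in TGF_KD_CM against OE_CM. In limma on log2(FPKM + 1), whose added 1 understates low genes by construction, Tlr3 rose by log2 0.48 and Ifih1 by 1.77 in TGF_KD_CM against TGF_VEC_CM, and Dhx58 moved by -0.59, Rigi by -0.43 and Tlr3 by -0.15 in OE_CM.

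Deviations of same-numbered replicates correlated weakly (highest r 0.0436, none above 0.1), so the numbers were not taken to pair libraries, although 14 of 18 pairs correlated best with their own number. With the replicate number as a block, 8 members were called in OE_CM and 7 in TGF_KD_CM, as without it, and 7894 and 6381 of all genes.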
